A study of Mus musculus with 6 samples.

Results

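Cells that carried transcripts of both the cytokine receptor gene Flt3 and the T cell receptor constant region gene Trbc2 numbered 321 of 34587 kept cells in a set of single-cell RNA libraries from mice, or 0.928% (exact Clopper-Pearson 95% interval 0.830 to 1.03). A kept cell had at least 1000 unique molecular identifiers (UMIs, each standing for 1 captured transcript), at least 500 genes and at most 10% of its UMIs from mitochondrial genes. The cells were chosen by a rule on measured counts. It asked for at least 2 UMIs of Flt3 and 2 of Trbc2, fewer than 3 of the B cell receptor component Cd79a, at most 3 of the macrophage growth factor receptor Csf1r and at most 1 of the macrophage genes Mrc1 and Lyve1 together. It also asked for fewer than 20 UMIs per 10000 of the granule protein genes Mpo, Elane, Prtn3 and Ctsg. The levels of these 10 genes describe the choice and are not results.

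The study concerns osteoclast precursors of the embryo and their descent from erythromyeloid progenitors of the yolk sac, and its labels give 3 groups with 2 samples in each. One is of Cx3cr1CreER; R26tdTomato embryos whose mothers received 4-hydroxytamoxifen at E9.5, and another of Csf1r-Mer-iCre-Mer; Csf1r-EGFP; R26tdTomato embryos whose mothers received it at E8.5. Both were collected at E14.5 as macrophage or monocyte lineage cells from whole-body suspensions. The last is total bone marrow from wildtype C57BL/6 mice of 2 months, for which the drug is given as not applicable. In the embryos, the drug lets Cre recombine only in cells that use the Cx3cr1 or the Csf1r promoter at that time, and these cells and their progeny then carry the reporter tdTomato. The counts come as 1 matrix of 39048 barcodes from 4 libraries, numbered by the end of the barcode. Those numbers match no sample label, so the libraries are given one by one and no sample group is compared with another. No test was made, because cells of a library are not replicates. The labels name R26tdTomato for the embryo groups only. A tdTomato UMI was seen in 40.0%, 46.8%, 56.6% and 53.9% of the kept cells of libraries 1 to 4 other than the Flt3 Trbc2 cells.

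Flt3 encodes the receptor for the growth factor Flt3 ligand and marks blood progenitors that have left the stem cell state but can still give rise to both lymphoid and myeloid cells. As such progenitors turn towards the lymphoid lineages they switch on the interleukin-7 receptor Il7r and the recombination genes Rag1 and Rag2, and they transcribe unrearranged antigen receptor loci, among them the constant regions Trbc1, Trbc2 and Ighm. The chemokine receptors Ccr9 and Ccr7 guide progenitors to the thymus, where Notch1 signalling sets the T cell programme with Tcf7, Gata3 and then Bcl11b, while Ebf1 and Pax5 set the B cell programme.

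Because Trbc2 chose the cells, its near-identical neighbour Trbc1 matters for what a UMI of either gene means. In the GENCODE M21 annotation (GRCm38), Trbc1 lies at chr6:41538218-41539881 and Trbc2 at chr6:41546730-41548352, both on the plus strand, and Flt3 lies at chr5:147330741-147400489 on the minus strand. Of 518 coding bases, the Trbc1 and Trbc2 transcripts compared here differed at 23, an identity of 95.6%. The long first exon, of 375 bases, differed at 1 base, whereas the coding exon 3, of 107 bases, differed at 15. That exon is shown for both genes, with the differing bases in capitals (Trbc1 chr6:41539229-41539335, Trbc2 chr6:41547772-41547878, both plus strand).
Trbc1: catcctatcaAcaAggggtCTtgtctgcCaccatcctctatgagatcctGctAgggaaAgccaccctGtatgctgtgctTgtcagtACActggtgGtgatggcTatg
Trbc2: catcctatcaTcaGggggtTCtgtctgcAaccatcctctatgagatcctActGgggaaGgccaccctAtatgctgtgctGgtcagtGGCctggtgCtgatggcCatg
Of the 50-base windows of Trbc2's exon 1, 84.7% also occur in the Trbc1 transcript, and of those of its last exon, which is 192 bases long, 0%. A read from the last exon can therefore be told from Trbc1 and most reads from exon 1 cannot. The counts do not give which part of the gene each UMI came from, nor how reads that match both genes were treated. How far the counts of Trbc1 and Trbc2 each miss or share such reads was not tested.

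The cells came almost only from 2 of the libraries. Library 3 held 142 of them among 7196 kept cells, 1.97% (95% interval 1.66 to 2.32), and library 4 held 177 among 11959, 1.48% (1.27 to 1.71). Library 1 held 2 among 8369 kept cells, and library 2 held 0 of 7063, which allows a share of up to 0.0425%. These intervals cover counting error only. Kept cells of libraries 1 and 2 had median UMIs of 13163 and 13077, against 14957 and 14156 in libraries 3 and 4. The members themselves were deeper, with medians of 23274 UMIs and 4557 genes in library 3 and 24161 UMIs and 4587 genes in library 4.

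Both selecting genes differed between the libraries on their own. Trbc2 reached 2 UMIs in 5, 2, 349 and 435 kept cells of libraries 1 to 4, and Flt3 in 122, 83, 443 and 632. Together they did so in 2, 1, 191 and 259 cells, or 453 in all. The limit on Cd79a left 405 of these, that on Csf1r 350, that on Mrc1 with Lyve1 336 and that on granule genes 321. With 1 UMI of each gene in place of 2, the full rule gave 459 cells, of which 3, 1, 212 and 243 came from libraries 1 to 4.

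For comparison, 3 other populations were each cut from the same kept cells by a rule on a few genes. Granulocyte-monocyte progenitors, with at least 50 granule UMIs per 10000, numbered 14, 15, 283 and 541 in libraries 1 to 4. B-lineage cells, with at least 3 UMIs of Cd79a, numbered 0, 0, 71 and 108. Cells with Ccr2, Cd34 and at least 4 UMIs of Csf1r, called Ccr2 Cd34 cells here, numbered 902, 894, 556 and 1075. Like the Flt3 Trbc2 cells, the first 2 of these populations were mostly in libraries 3 and 4, whereas Ccr2 Cd34 cells were in all 4 libraries. Levels were compared within libraries 3 and 4, which hold 319 of the members.

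**Figure D1:**
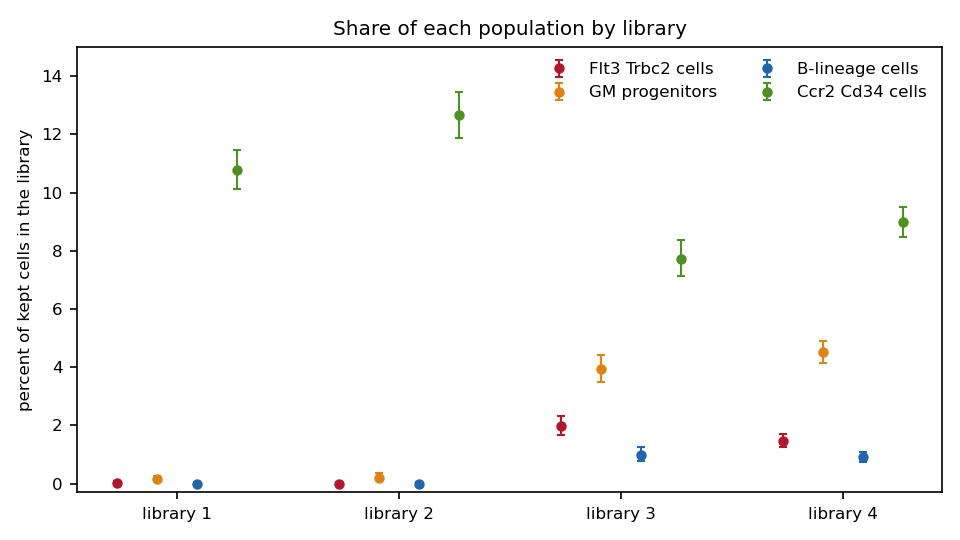
Share of each population in each library. The vertical axis is the percent of the library's kept cells, points are shares and bars are exact binomial 95% intervals. Flt3 Trbc2 cells stood at 1.97% and 1.48% in libraries 3 and 4 and had 2 and 0 cells in libraries 1 and 2.

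Inside the rule the cells covered a range. A member held a median of 4 UMIs of Flt3 in both libraries, and from 2 to 12 in library 3 and 2 to 14 in library 4. Trbc2 had a median of 13 UMIs in both, and reached 70 and 62. Csf1r was at 0 UMIs in 139 members and at 1 to 3 in 180. Granule genes had no UMI in 58 members and stood under 5 per 10000 in 238, but at 10 to under 20 in 41. Cd79a was at 0 UMIs in 284.

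Cells on either side of several limits were set beside each other as a description. The 79 members with exactly 2 UMIs of Flt3 held Hmga2 at 366 counts per 1000000 UMIs (CPM), and the 92 cells with 1 UMI that met all other limits held it at 258. The latter were shallower, with a median of 15824 against 23148 UMIs. At the Cd79a limit Ebf1, a factor that starts the B cell programme, stood at 431 CPM in the 10 members with 2 UMIs. It stood at 922 in the 36 cells with 3 or more. At the granule limit Ccr9 stood at 4.89 CPM in the 41 members with 10 to under 20 per 10000 and had no UMI in the 14 cells with 20 and over, while Hmga2 was at 598 and 546 CPM. At the Csf1r limit Il7r stood at 89.1 CPM in the 28 members with 3 UMIs and 80.1 in the 11 cells with 4, while Hmga2 stood at 482 and 243 and Ebf1 at 119 and 58.5. At the Trbc2 limit Ccr9 stood at 27.8 CPM in the 22 members with 2 UMIs and 54.1 in the 30 cells with 1, and Ctla2a at 250 and 442, and the latter cells were shallower, with a median of 13502 against 23992 UMIs.

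Barcodes can recur by chance between libraries: 571 barcode sequences were kept in more than 1 library. Of the members, 9 had a barcode sequence that was also kept in another library, and 0 sequences were shared between members of different libraries.

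The 4 genes that mark these cells were compared first. Flt3 stood at 176 CPM in library 3 and 197 in library 4, and Trbc2 at 689 and 655, both fixed by the rule. Ctla2a, which encodes a small protein related to cysteine protease propeptides, stood at 168 and 235 CPM. It was at 9.83 and 11.6 CPM in granulocyte-monocyte progenitors, 6.66 and 6.94 in B-lineage cells and 2.73 and 2.44 in Ccr2 Cd34 cells, so the members' values lay above all of these in both libraries. Hmga2, a chromatin protein gene of fetal blood progenitors, stood at 404 and 380 CPM. Its level was 122 and 95.1 CPM in granulocyte-monocyte progenitors, 160 and 122 in B-lineage cells and 14.4 and 14.0 in Ccr2 Cd34 cells.

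Differences between populations are given as log2 of the ratio of (CPM + 10), with UMIs summed over cells, and a gene is counted as higher or lower where that ratio is at least 4-fold. This scale understates differences of low genes. Counts of listed genes are out of the whole list, but only genes of at least 50 CPM in either population could be counted. Against granulocyte-monocyte progenitors, 3051 genes reached 50 CPM in either population, of which 63 (2.06%) were higher in Flt3 Trbc2 cells and 65 (2.13%) lower. All 128 had the same sign in both libraries, and 115 passed 4-fold in each. Against B-lineage cells, 11 (0.37%) of 2974 genes were higher and 38 (1.28%) lower, all 49 with the same sign in both libraries. Library 3 alone gave 22 higher genes, of which 8 were among the 11, and library 4 alone gave 12, of which 10 were. Against Ccr2 Cd34 cells, 58 (1.8%) of 3228 genes were higher and 153 (4.74%) lower, 210 of the 211 with the same sign in both libraries. The median log2 difference over all these genes was 0.026, -0.0015 and 0.086 in the 3 comparisons.

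**Figure D2:**
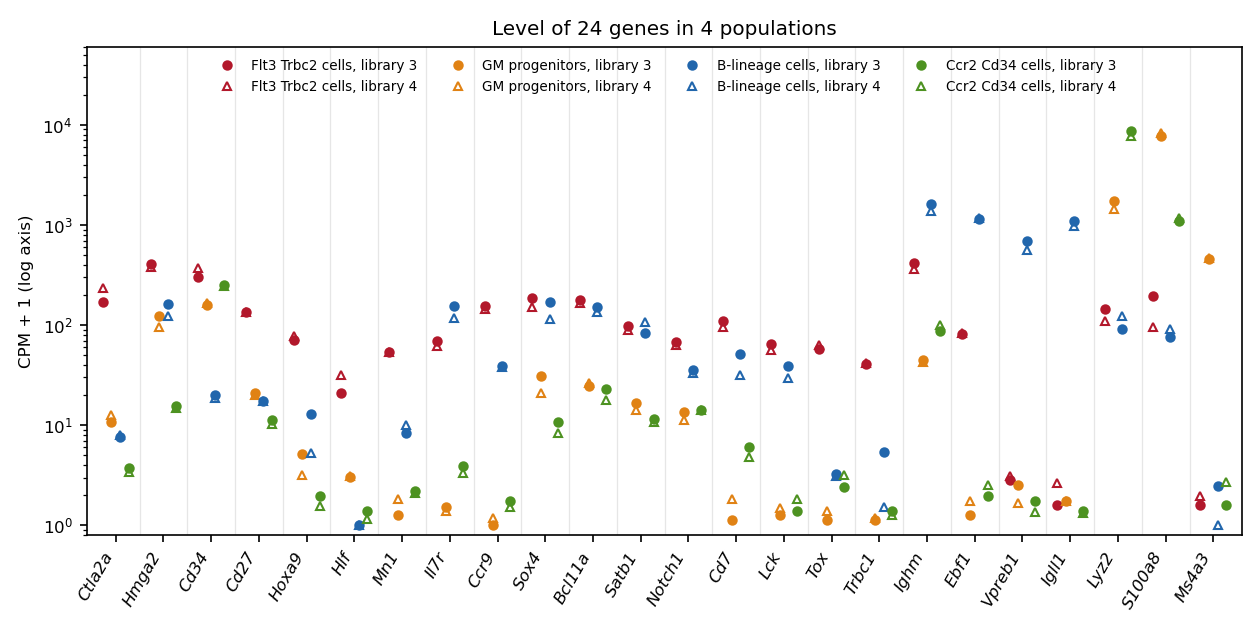
Levels of 24 genes in 4 populations. The vertical axis is CPM + 1 on a log scale, filled circles are library 3 and open triangles library 4, and colours are the populations. Ccr9 stood at 154 and 143 CPM in Flt3 Trbc2 cells and at or under 0.189 in granulocyte-monocyte progenitors, and Vpreb1 and Igll1 were high in B-lineage cells alone among the 4 populations.

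Genes of stem cells and multipotent progenitors were present in part. Of 21 listed, 10 reached 50 CPM in the members, and 4 were higher than in granulocyte-monocyte progenitors, 3 than in B-lineage cells and 6 of 20 than in Ccr2 Cd34 cells, none lower. Their median log2 differences were 0.73, 0.81 and 1.48. Cd34, a surface sialomucin of progenitors, stood at 304 and 368 CPM in libraries 3 and 4, against 159 and 165 in granulocyte-monocyte progenitors and 19.3 and 17.6 in B-lineage cells. The members were above both in each library, with log2 differences of 1.02 and 3.63. The homeobox gene Hoxa9, active in multipotent progenitors, stood at 69.3 and 77.7 CPM, against 4.21 and 2.18 in granulocyte-monocyte progenitors and 11.8 and 4.27 in B-lineage cells. It was higher than in all 3 populations, with log2 differences of 2.69, 2.27 and 2.97, although in library 3 alone the difference from B-lineage cells was 1.86. Cd27, a receptor of the tumour necrosis factor family found on multipotent progenitors, stood at 135 CPM in both libraries and between 9.23 and 19.9 in the other populations, with differences of 2.30, 2.45 and 2.89.

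Other members of that list differed less or were low. The transcription cofactor gene Mn1 stood at 52.8 CPM, against 0.598 in granulocyte-monocyte progenitors, and Hoxa7 at 76.5 against 4.89. Lmo2, an adaptor of blood transcription factor complexes, stood at 149 CPM in the members and 137 in granulocyte-monocyte progenitors. Kit, the stem cell factor receptor, stood at 53.2 CPM in the members and between 7.94 and 28.4 elsewhere, with log2 differences of 0.72, 0.81 and 1.82. Hlf, which marks stem cells in the embryo, stood at 19.9 and 30.6 CPM in the 2 libraries, against 2.04 and 2.08 in granulocyte-monocyte progenitors and no UMI in B-lineage cells. The stem cell genes Mecom, Slamf1 and Procr were at 4.77, 3.32 and 0.531 CPM, so Hlf was the one gene of those 4 stem cell markers above 10 CPM.

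Early lymphoid genes were among the largest differences from the myeloid populations. The members were chosen for Flt3 and Trbc2 and the other populations were not, so genes that accompany these 2 genes share in that choice. Of 19 listed, 5 were higher than in granulocyte-monocyte progenitors, 5 than in Ccr2 Cd34 cells and 0 than in B-lineage cells, with medians of 1.06, 1.18 and -0.28. Il7r stood at 68.1 and 60.9 CPM in libraries 3 and 4, against 0.510 and 0.379 in granulocyte-monocyte progenitors and 155 and 117 in B-lineage cells. The members lay between these populations in both libraries, 2.83 above the first and 0.95 below the second in log2. Ccr9 stood at 154 and 143 CPM, against 0 and 0.189 in granulocyte-monocyte progenitors and 37.8 and 36.8 in B-lineage cells. It was above B-lineage cells in both libraries, by 1.74 in log2, which is under 4-fold.

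The lymphoid transcription factors Sox4, Bcl11a and Satb1 stood at 167, 169 and 91.9 CPM. They were 2.37, 2.37 and 2.06 above granulocyte-monocyte progenitors in log2, and within 0.27 of B-lineage cells. Mef2c, a factor of lymphoid progenitors, stood at 559 CPM against 214 in granulocyte-monocyte progenitors and 565 in B-lineage cells. The recombination gene Rag1 stood at 5.31 CPM (exact Poisson 95% interval 3.79 to 7.22) against 89.0 in B-lineage cells, and Rag2 at 9.55 against 33.8. Dntt, which adds bases at receptor joints, had no UMI in the members, which allows up to 0.398 CPM.

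Among T lineage genes, Cd7, Tox and Lck were the highest in the members, and Cd3e, Cd8a and Bcl11b had no UMI. Of 22 listed, 3 were higher than in granulocyte-monocyte progenitors, 1 than in B-lineage cells and 3 than in Ccr2 Cd34 cells, and none was lower, with medians of 0.18, 0.14 and 0.18. Of these 22 genes, 3 reached 50 CPM in the members and 3 had no UMI. In the 3 comparisons, 3, 4 and 3 reached it in either population. Cd7, a surface protein of early lymphocytes, stood at 110 and 95.5 CPM in libraries 3 and 4, against 0.128 and 0.852 in granulocyte-monocyte progenitors and 50.3 and 31.0 in B-lineage cells. Tox, a nuclear protein needed by T and innate lymphoid precursors, stood at 56.4 and 63.0 CPM and between 0.128 and 2.22 in every library of the other 3 populations. It was higher than in all 3, by 2.77, 2.53 and 2.55 in log2. T lineage genes that accompany Trbc2 share in the choice of the cells, so these differences are a description. Lck, the kinase next to the T cell receptor, stood at 63.6 and 55.9 CPM, against 37.8 and 28.8 in B-lineage cells and at most 0.849 in the other 2 populations.

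Trbc1 is given with the limit on telling it from Trbc2 stated above. It stood at 39.5 and 41.0 CPM, against 4.44 and 0.534 in B-lineage cells. The T cell specifying factors Tcf7 and Gata3 stood at 20.3 and 12.9 CPM, against at most 1.86 and 0.931 in the other populations. Of the genes of the receptor complex and of commitment, Cd3e, Cd8a and the commitment factor Bcl11b had no UMI, Cd3d stood at 1.33 CPM, Trac at 1.59 and the pre-T cell receptor gene Ptcra at 3.32. Cd3g was the highest of the CD3 genes, at 11.8 CPM in library 3 and 5.69 in library 4.

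B lineage genes separated the members from B-lineage cells. Of 14 listed, 11 were lower in the members and 0 higher, and the median log2 difference was -3.57. The surrogate light chain genes stood close to 0 in the members: Igll1 at 1.19 CPM against 1029, Vpreb1 at 1.99 against 619 and Vpreb3 at 0.265 against 934. Pax5, which fixes B cell identity, stood at 1.72 CPM against 100.5. The B-lineage cells were cut on Cd79a, so genes that accompany it are part of that choice.

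A few B lineage genes were nonetheless above the myeloid populations. Among the 14 listed, Ebf1 and Ighm were higher than in granulocyte-monocyte progenitors, and Ebf1 and Cd24a higher than in Ccr2 Cd34 cells. Ighm did not pass 4-fold against the latter, and none of the 14 was lower. In each of these comparisons 4 of the 14 reached 50 CPM in either population, and the medians were 0.15 and 0.16. Ebf1 stood at 81.4 and 81.7 CPM in libraries 3 and 4, against 0.255 and 0.758 in granulocyte-monocyte progenitors and 1156 and 1165 in B-lineage cells. It was 3.12 above the first and 3.68 below the second in log2. Ighm, the heavy chain constant region, stood at 417 and 361 CPM, against 43.4 and 41.9 in granulocyte-monocyte progenitors and 1630 and 1376 in B-lineage cells. Its log2 differences were 2.91 and -1.92, so the members again lay between both in each library. Counts of Ighm do not tell a rearranged transcript from an unrearranged one.

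Innate lymphoid and natural killer cell genes were mixed. Of 21 listed, 2 were higher than in granulocyte-monocyte progenitors, 1 than in B-lineage cells and 2 than in Ccr2 Cd34 cells, with medians of 0.21, 0.17 and 0.13 and none lower. Ltb, which encodes lymphotoxin beta, stood at 77.6 CPM against 2.77 in granulocyte-monocyte progenitors and 41.9 in B-lineage cells, and the integrin gene Itgb7 at 53.9 against 4.78 and 8.06. Nkg7, a granule membrane gene, stood at 50.1 CPM against 3.10 in B-lineage cells but 67.0 in granulocyte-monocyte progenitors. Id2, an inhibitor of E proteins needed by innate lymphoid cells, stood at 110 CPM, above both of these populations and below the 405 of Ccr2 Cd34 cells. The effector genes Tbx21, Eomes, Ncr1 and Cxcr6 had no UMI. Of the innate lymphoid markers, Zbtb16, Rora and Il18r1 stood at 3.71, 3.71 and 1.06 CPM.

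Dendritic cell genes were mixed. Of 20 listed, Cd74 and Cox6a2 were higher than in granulocyte-monocyte progenitors, with log2 differences of 2.98 and 3.21, and none was lower, with a median of 0.40. Against Ccr2 Cd34 cells Cox6a2 was higher and Zeb2 and H2-Aa were lower, with a median of -0.65, and against B-lineage cells 0 were higher and 1 was lower, with a median of -0.57. Cd74, the invariant chain of antigen presentation, stood at 133 and 153 CPM in libraries 3 and 4, against 11.7 and 7.86 in granulocyte-monocyte progenitors, 497 and 417 in Ccr2 Cd34 cells and 18.5 and 384 in B-lineage cells. Its difference from B-lineage cells thus changed sign between the libraries, at 2.33 in library 3 and -1.28 in library 4. Cox6a2, a cytochrome oxidase subunit high in plasmacytoid cells, stood at 118 and 94.3 CPM, against 274 and 365 in B-lineage cells. Tcf4, the factor that directs the plasmacytoid fate, stood at 115 CPM, Bst2 at 170, Siglech at 24.4 and Spib at 7.56. Irf8, needed by dendritic cells and monocytes, stood at 104 CPM against 296 in granulocyte-monocyte progenitors. The antigen-presenting genes H2-Aa, H2-Ab1 and H2-Eb1 stood at 7.03, 11.4 and 4.64 CPM. H2-Ab1 was lower than in B-lineage cells, but those cells differed between libraries, at 47.4 and 125 CPM, and in library 3 alone the difference was -1.44. Cd209a and Zbtb46, markers of conventional dendritic cells, stood at 0.133 and 0.663 CPM.

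Granulocyte and monocyte genes were lower than in granulocyte-monocyte progenitors and Ccr2 Cd34 cells. Ccr2 Cd34 cells were chosen for Ccr2 and at least 4 UMIs of Csf1r, of which the members held at most 3. Genes that accompany Ccr2 or Csf1r share in that choice. The members were limited to fewer than 20 granule UMIs per 10000 and granulocyte-monocyte progenitors were chosen for 50 or more, so genes that accompany the granule genes share in that choice and their differences are a description. Of 24 listed, 13 were lower than in granulocyte-monocyte progenitors and 13 of 23 lower than in Ccr2 Cd34 cells, with medians of -2.90 and -2.23, and 0 were higher. Against B-lineage cells 0 differed by 4-fold in either direction and the median was 0.026. Ms4a3, a marker of granulocyte-monocyte progenitors outside the rule, stood at 0.603 and 0.948 CPM in libraries 3 and 4, against 453 and 471. Cebpe, which drives granule formation, stood at 0.663 CPM against 92.0, and Fcnb at 1.59 against 288. The log2 differences of these genes were -5.45, -3.26 and -4.68.

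The most abundant genes of that list were not at 0 in the members. Lyz2, the macrophage lysozyme, stood at 143 and 108 CPM, against 1736 and 1440 in granulocyte-monocyte progenitors, 8782 and 7764 in Ccr2 Cd34 cells, and 91.1 and 122 in B-lineage cells. Members and B-lineage cells overlapped across libraries. In subgroup 3, described below, 1 cell held 45.2% of the Lyz2 UMIs. Lyz2 stood there at 209 CPM in library 3 and 89.7 in library 4. S100a8, a calcium-binding protein of granulocytes, stood at 193 and 95.2 CPM, against 75.5 and 90.7 in B-lineage cells and 7779 and 8389 in granulocyte-monocyte progenitors. In library 3 these counts include 1 cell that held 68.2% of the S100a8 UMIs of subgroup 3, described below. RNA free in the droplets can give such counts, and its part in them was not tested. Spi1, the factor PU.1 shared by myeloid and early lymphoid cells, stood at 200 CPM, against 397 in granulocyte-monocyte progenitors, 159 in B-lineage cells and 584 in Ccr2 Cd34 cells. Of the rule's own granule genes, Mpo and Prtn3 stood at 291 and 137 CPM, and Elane and Ctsg at 3.98 and 5.17.

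Other cell types were checked by their markers. Of 12 macrophage genes, 7 were lower than in Ccr2 Cd34 cells and 0 differed by 4-fold from granulocyte-monocyte progenitors or B-lineage cells. Against these populations, in that order, 7, 2 and 1 of the 12 reached 50 CPM in either population. Ccr2 Cd34 cells were chosen for Csf1r, so macrophage genes that accompany it share in that choice. The summed level of the 12 was 295 and 411 CPM in the members of libraries 3 and 4 and 513 and 708 in granulocyte-monocyte progenitors. It was 262 and 422 in B-lineage cells, and 3824 and 3842 in Ccr2 Cd34 cells. The 12 genes of liver, vessel, connective tissue, epithelium and nerve summed to 44.6 and 58.5 CPM, of which the endothelial and progenitor gene Pecam1 made 26.5. Globin genes differed between the libraries: Hba-a1 stood at 846 CPM in library 3 and 119 in library 4. Of the subgroups described below, subgroup 2 held it at 5041 CPM in library 3, nearly all of it in 1 cell, and the others at 105 to 148 CPM. The mast cell gene Cpa3 stood at 132 and 40.5 CPM, and Mcpt8 and Car1 had no UMI. In subgroups 4 and 2, 1 cell of each held 65.5% and 68.4% of the Cpa3 UMIs.

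The label of these cells, lymphomyeloid progenitors, was set against these markers. Of its own 4 markers, Flt3 and Trbc2 chose the cells, and Ctla2a and Hmga2 were named with earlier results of these data known. Ctla2a was at least 4-fold higher than in all 3 populations. It stood at 499 CPM in subgroup 1, described below, and between 46.9 and 78.5 in the other subgroups. Hmga2 was above all 3 populations but passed 4-fold against Ccr2 Cd34 cells only. Progenitor genes (Cd34, Kit, Cd27, Hoxa9) and early lymphoid genes (Il7r, Ccr9) were present. Genes that accompany Flt3 or Trbc2 share in the choice of the cells. Cd3e, Bcl11b, Xcr1, Car1 and Mcpt8, markers of other lineages, had no UMI, and the granule genes were limited by the rule. Other genes of those lineages were measured in the members, among them Cpa3, Hba-a1, Cd7, Lck, Tox, Cd74, Cox6a2, Ebf1 and Ighm, with the values given above. No measurement here shows what the cells give rise to.

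**Figure D3:**
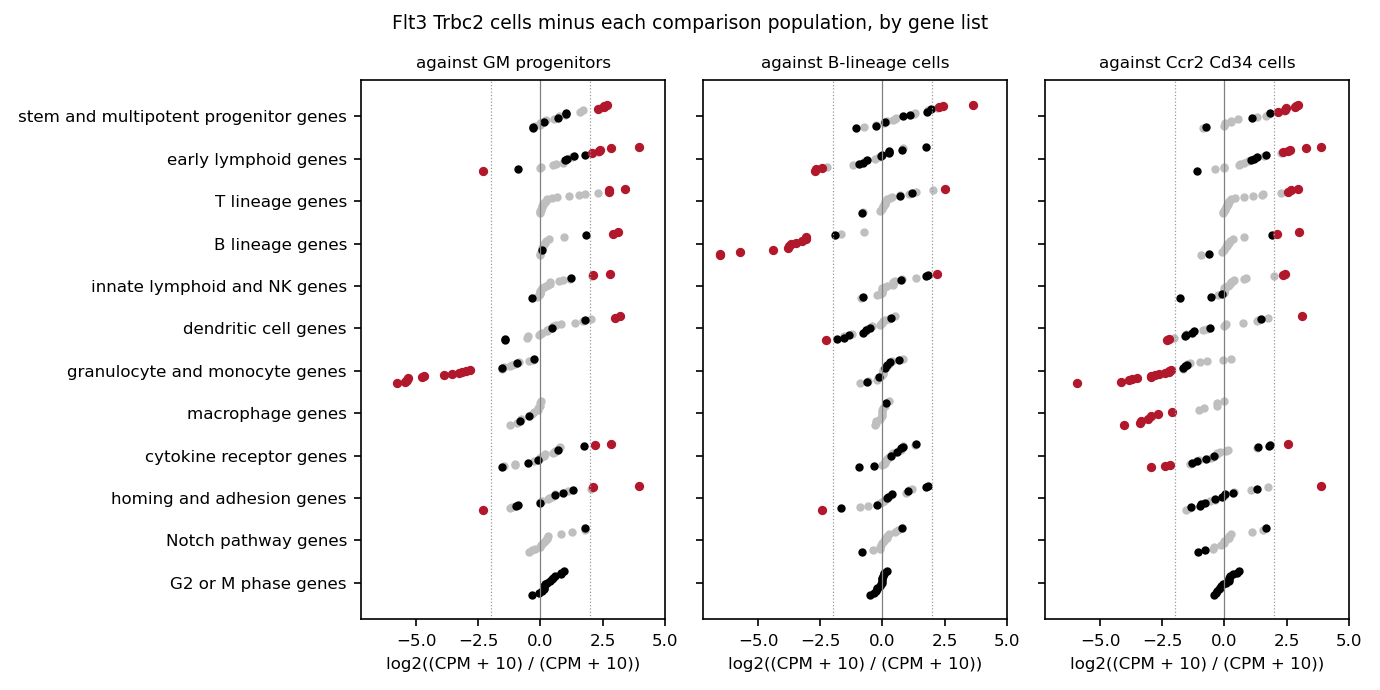
Log2 differences between Flt3 Trbc2 cells and 3 comparison populations for the genes of 12 lists. Each point is 1 gene, to the right where it was higher in Flt3 Trbc2 cells; red points passed 4-fold, black points did not, grey points stayed under 50 CPM in both populations, and dotted lines mark 4-fold. Of granulocyte and monocyte genes 13 lie beyond the left line in the left and right panels and 0 in the middle one, and of B lineage genes 11 do in the middle one.

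Receptors for cytokines and their signalling genes differed little outside a few members. Of 21 cytokine receptor genes, Il7r and its partner chain Il2rg were higher than in granulocyte-monocyte progenitors, and 0 differed by 4-fold from B-lineage cells. Il2rg stood at 71.7 and 73.0 CPM, against 7.79 and 8.52 in granulocyte-monocyte progenitors and 34.8 and 41.6 in B-lineage cells. Il21r, an interleukin-21 receptor chain that pairs with Il2rg, stood at 75.2 CPM against 15.5 in granulocyte-monocyte progenitors and 23.3 in B-lineage cells, below the 4-fold limit. The myeloid growth factor receptor genes Csf2ra, Csf2rb and Il6ra were lower than in Ccr2 Cd34 cells, by 2.39, 2.96 and 2.21 in log2. Tnfrsf11a, which encodes the osteoclast receptor RANK, stood at 1.06 CPM (0.458 to 2.09).

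Of 18 genes for Flt3 ligand and the signals below the Flt3 receptor, 0 passed 4-fold in any comparison. Of them, 4, 6 and 6 reached 50 CPM in either population, and the medians of all 18 were 0.18, -0.15 and -0.26. Pim1, a kinase gene induced by STAT5, stood at 346 CPM against 158 in granulocyte-monocyte progenitors and 364 in B-lineage cells. The ligand gene Flt3l itself stood at 3.85 CPM. In the Notch pathway 0 of 14 genes passed 4-fold, but only 1, 2 and 3 reached 50 CPM in either population in the 3 comparisons. Notch1 stood at 66.6 and 61.6 CPM, against 12.5 and 10.3 in granulocyte-monocyte progenitors and 34.8 and 32.0 in B-lineage cells, and Hes1, a Notch target, at 60.6 and 39.8 against 3.06 and 10.2, and 102 and 89.1. Notch1 was thus highest and Hes1 intermediate in the members in each library, while the targets Dtx1, Nrarp and Ptcra stood at 0.663, 2.52 and 3.32 CPM.

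Among 19 homing and adhesion genes, Ccr9 and Itgb7 were higher than in granulocyte-monocyte progenitors. Ccr7 stood at 32.9 and 30.1 CPM in libraries 3 and 4, with no UMI in granulocyte-monocyte progenitors, 14.1 and 48.0 in B-lineage cells and 2.96 and 1.99 in Ccr2 Cd34 cells. Cd47, a signal against engulfment, stood at 569 CPM, between 0.38 and 1.30 above the other populations in log2. Cxcr4, which retains cells in the marrow and liver, stood at 11.0 CPM against 36.0 in granulocyte-monocyte progenitors and 55.8 in B-lineage cells. The chemokine receptor Cxcr6 had no UMI.

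Of 14 genes of the fetal programme, Hmga2 was higher than in Ccr2 Cd34 cells, by 4.05 in log2, and H19, an imprinted RNA, lower than in B-lineage cells, by 2.34. H19 stood at 82.6 CPM in library 3 and 27.7 in library 4. In subgroup 4, described below, 1 cell held 67.8% of the H19 UMIs. H19 stood there at 228 CPM in library 3 and 45.7 in library 4. In library 3 alone the difference of all members from B-lineage cells was -1.66. The RNA-binding protein genes Igf2bp3 and Lin28b stood at 104 and 19.9 CPM, and at 87.1 and 14.0 in granulocyte-monocyte progenitors. Of 15 S phase and 15 G2 or M phase genes, 0 passed 4-fold in any comparison. The G2 or M phase genes summed to 4311 and 4554 CPM in the members, 4223 and 4242 in granulocyte-monocyte progenitors and 5629 and 5048 in B-lineage cells.

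Outside the lists, the genes most above granulocyte-monocyte progenitors and most above Ccr2 Cd34 cells were Nrgn, Gimap6, Mzb1 and Tsc22d1 in both comparisons, which share the members. Nrgn, a calmodulin-binding protein gene best known from neurons, stood at 235 and 231 CPM in libraries 3 and 4, against 3.81 in granulocyte-monocyte progenitors and 2.95 in Ccr2 Cd34 cells, differences of 4.14 and 4.23. Gimap6 and Gimap1, GTPases of lymphocytes, stood at 244 and 139 CPM against 6.31 and 5.11 in granulocyte-monocyte progenitors. Mzb1, a chaperone of antibody-making cells, stood at 168 CPM, against 1.90 in granulocyte-monocyte progenitors but 1219 in B-lineage cells. Plk2, Sept1, Tmem108, Shisa8 and Car2 completed the 10 highest against granulocyte-monocyte progenitors, with log2 differences from 3.02 to 3.46, and Ptprcap, Il12a and Egfl7 were among those against Ccr2 Cd34 cells, at 609, 105 and 327 CPM.

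Also outside the lists, the genes lowest against granulocyte-monocyte progenitors were led by Stfa1, a cysteine protease inhibitor of neutrophil precursors, at 43.2 CPM against 4507, followed by Anxa3, F13a1, Olfm4, Slpi and Pglyrp1 with differences from -4.09 to -3.61. Against Ccr2 Cd34 cells they were led by Ms4a6c at 15.7 and 13.5 CPM in libraries 3 and 4 against 820 and 1032, Lgals3 at 15.7 against 977, and the protease Ctsc at 62.9 against 1875. Against B-lineage cells, Chchd10 (40.1 CPM against 1078), Ptgr1 (77.5 against 1119) and the antibody genes Ighg2b (0.265 against 159) and Igkc (2.12 against 110) were the lowest outside the lists. Car2, which encodes carbonic anhydrase 2, was the highest of the unlisted genes against B-lineage cells, at 276 and 336 CPM in libraries 3 and 4 against 24.2, a difference of 3.22, followed by Cavin2 at 56.4 against 0.310 and Ifitm1 at 179 against 23.9.

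Shares of cells with a UMI were compared after each cell was thinned to 4000 UMIs, which left out 2 of the 319 members and 198 of 824 granulocyte-monocyte progenitors as too shallow. Ccr9 was seen in 35.0% of members (29.8 to 40.5), 10.1% of B-lineage cells and 0% of 626 granulocyte-monocyte progenitors, and without thinning in 58.9% of members and 0.243% of the latter. Il7r was seen in 23.3% of members (18.8 to 28.4), 33.3% of B-lineage cells and 0.160% of granulocyte-monocyte progenitors, and without thinning in 54.2% and 0.971%. Ctla2a was seen in 30.3% of members and 2.72% of granulocyte-monocyte progenitors (48.0% and 12.1% without thinning), Ebf1 in 18.6% and 0.160%, and Hlf in 8.52% and 0.639%. Median depths were 23665 UMIs in the members and 23461 in granulocyte-monocyte progenitors.

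Which genes met in the same cell was read at 8000 UMIs per cell, over 306 members. Gata3 was seen in 12 of the 30 members with Tcf7 and in 19 of the 276 without. Ebf1 was seen in 1 of the 30 with Tcf7, 3.33% (0.0844 to 17.2), and in 84 of the 276 without, 30.4% (25.1 to 36.2). Without thinning these became 6 of 42 and 106 of 277. The members with Tcf7 had a median of 19104 UMIs before thinning and the others 24635.

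Ccr9 was seen in 49 of the 61 members with Ccr7, 80.3% (68.2 to 89.4), and in 90 of the 245 without, 36.7% (30.7 to 43.1). It was seen in 30 of the 114 with Ctla2a, 26.3% (18.5 to 35.4), and in 109 of the 192 without, 56.8% (49.4 to 63.9). Il7r was seen in 5 of the 41 members with Hlf and in 90 of the 265 without. Ccr9 was thus seen in more of the members with Ccr7 and in fewer of those with Ctla2a. Cells with Ctla2a were deeper before thinning, with a median of 27509 against 21919 UMIs, and those with Ccr7 shallower, with 19623 against 25690.

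The 319 members were then clustered with the Leiden method, with the genes of the rule and all 283 listed genes left out of the clustering, so that listed genes could be read in the result. They still vary together with the genes that were used, so what follows is a description. At the resolution chosen there were 4 subgroups, numbered by their level of Ctla2a, with 89, 52, 97 and 81 cells, and each held cells of both libraries (32 and 57, 22 and 30, 51 and 46, 37 and 44). A finer resolution gave 7 clusters and a coarser one 4. Median depths were 28423, 24193, 25491 and 17036 UMIs.

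Subgroup 1, with Adgrl4 and Vamp5 among its leading genes, had the highest Ctla2a, Hlf and Hoxa9. Ctla2a stood at 499 CPM there and between 46.9 and 78.5 in the others and Hlf at 64.5 against 4.43 to 9.39. Hoxa9 stood at 131 CPM, against 22.2 to 76.7. Other progenitor genes were not highest here: Mn1 stood at 28.9 CPM against 47.1 to 87.4, Myb at 69.7 against 101 in subgroup 3, and Cd93 at 72.1 against 94.7 in subgroup 3. Over the 21 listed stem and progenitor genes the median log2 difference from the other members was 0.29. Il7r, Ccr9 and Cd7 were lowest in this subgroup, with Il7r at 13.5 CPM against 79.3 to 113, Ccr9 at 40.0 against 66.5 to 376 and Cd7 at 11.1 against 37.5 to 322. Sox4 was not, at 168 CPM against 115 in subgroup 4, nor were Bcl11a, at 167 against 135 in subgroup 3, and Ltb, at 63.4 against 25.8 in subgroup 3.

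Subgroup 3, led by Myl4, Tmem121 and Bcl2, held Ctla2a at 54.0 CPM and Hlf at 4.43. Ebf1 stood at 168 CPM, against 25.3 to 73.2 in the other subgroups, Irf8 at 249 against 24.5 to 47.7, and Cox6a2 at 234 against 27.3 to 67.1. Ly6d, a surface marker of B cell and plasmacytoid precursors, stood at 126 CPM against 0 to 1.74, and 1 cell held 31.3% of its UMIs. Hmga2 was highest here, at 525 CPM. At the finer resolution most of this subgroup fell into a cluster of 21 cells, with Irf8 at 717 CPM, Ly6d at 428 and Ebf1 at 85.0, and one of 63 cells, with Irf8 at 113, Ly6d at 40.6 and Ebf1 at 241. Irf8 and Ly6d were thus highest in the smaller of these clusters and Ebf1 in the larger.

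Thymus homing and early T lineage genes, among them Ccr9, Ccr7, Cd7 and Tcf7, were highest in subgroups 2 and 4. Ccr9 stood at 376 and 303 CPM in them, against 40.0 and 66.5 in subgroups 1 and 3. Ccr7 stood at 60.2 and 85.2 against 5.94 and 13.7, Cd7 at 175 and 322 against 11.1 and 37.5, and Tcf7 at 38.4 and 52.0 against 1.19 and 13.7, with 56.8% of subgroup 2's Tcf7 UMIs in 1 cell. Id2 stood at 214 and 234 CPM against 25.7 and 79.4, Itgb7 at 93.3 and 114 against 19.8 and 36.7, and Cd74 at 310 and 435 against 14.7 and 36.7. In each of these genes both libraries of subgroups 2 and 4 lay on the same side of both libraries of subgroups 1 and 3, except Tcf7, where subgroup 2 in library 3 stood at 14.2 CPM and subgroup 3 in that library at 17.8.

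Cell cycle genes separated subgroup 2 from subgroup 4. The G2 or M phase genes summed to 8989 CPM in subgroup 2 and 1580 in subgroup 4, with Ube2c at 1292 and 43.3 and Top2a at 802 and 166, while subgroups 1 and 3 stood at 4184 and 4216. The S phase genes went another way, at 1535 and 2743 CPM. Il7r was highest in subgroup 4, at 113 CPM, and that subgroup was the shallowest. Some of its leading genes rested on few cells: 1 cell held 79.5% of the UMIs of the mast cell protease Cma1 and 3 cells held 97.4% of those of Tpsb2, whereas Ckb and Gsn, the next leading genes shared by most of its cells, were seen in 73 and 78 of 81 cells. Cpa3 stood at 272 CPM in subgroup 4 and 116 in subgroup 2, with 65.5% and 68.4% of its UMIs in 1 cell of each. In subgroup 2, Jchain was seen in 11 cells.

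**Figure D4:**
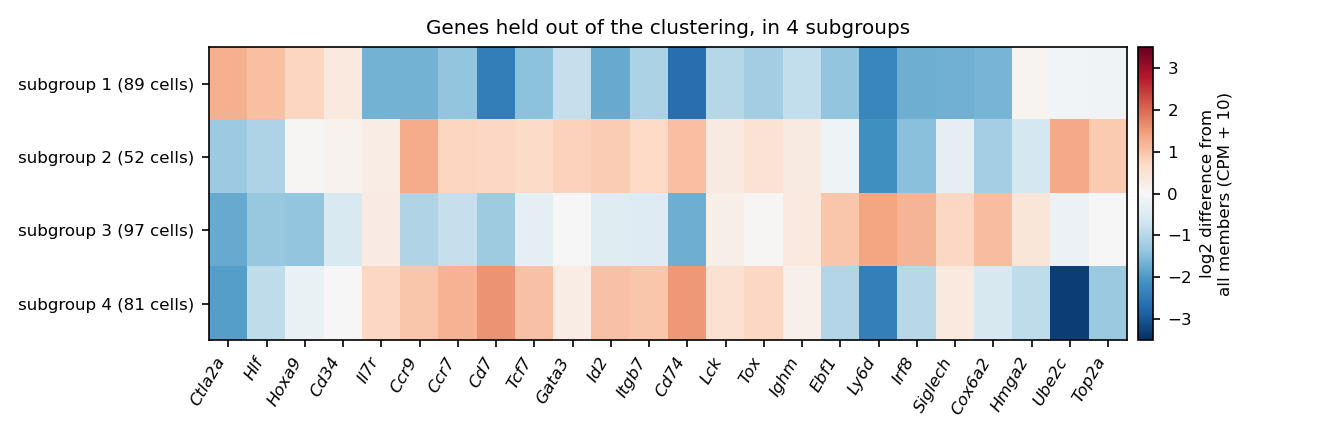
Levels of 24 genes in the 4 subgroups of Flt3 Trbc2 cells, all left out of the clustering. Colour is the log2 ratio of (CPM + 10) in the subgroup to that in all 319 members, red for higher and blue for lower. Ctla2a and Hlf are red in subgroup 1, Ccr9, Ccr7 and Cd7 in subgroups 2 and 4, and Ebf1, Ly6d and Irf8 in subgroup 3.

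The reporter tdTomato stood at 27.7 CPM in the members of library 3 and 33.4 in those of library 4, and at 30.9 (27.1 to 35.1) in both together. Granulocyte-monocyte progenitors held 26.5 and 36.1, B-lineage cells 16.3 and 25.1, and Ccr2 Cd34 cells 46.4 and 47.0, while all other kept cells of these libraries held 167 and 177. The members' values overlapped those of granulocyte-monocyte progenitors and lay below those of Ccr2 Cd34 cells and of the remaining cells in each library. A UMI of tdTomato was seen in 47.2% and 46.3% of members, with a highest count of 10, and in 10.7% (7.54 to 14.7) after thinning to 4000 UMIs. At that depth it was seen in 10.7% of granulocyte-monocyte progenitors, 8.93% of B-lineage cells and 14.7% of Ccr2 Cd34 cells. No cell type here is known to lack the reporter, so a level of 0 or 1 UMI was not read as absence or presence of recombination. Both members of library 1 held 1 UMI.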

How the data were processed

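The authors deposited whole-number counts of UMIs, not normalized, as a single matrix (31054 features by 39048 barcodes, 561415289 UMIs). Per the file headers it was written by Cell Ranger 3.0.1, while version 2.1.1 and the build mm10 stand in the submitters' processing notes. Libraries held 106500620 to 198754246 UMIs. The number at the end of a barcode matches no sample label, so the matrix was used as 1 pooled sample and no p-value was computed. The members, gene lists and comparisons were chosen with earlier results of these data known.

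Barcodes were kept at 1000 UMIs, 500 genes and 10% mitochondrial UMIs. No doublet caller was run, and possible doublets stayed in. One alternative leaves out cells of more than 2 times the median depth of their population and library. UMIs of a population were summed over its cells in libraries 3 and 4 and scaled to CPM. Intervals of these sums are exact Poisson 95% intervals, and populations were compared as log2 of (CPM + 10). Genes of at least 50 CPM in either population entered the counts, without the rule's genes and 35 symbols that occur more than once. Shares have exact Clopper-Pearson intervals. An upper limit for a count of 0 takes 3 counts. Subgroups came from 1000 variable genes, 15 components and 15 neighbours, with Leiden at resolution 0.5 (scanpy 1.11.5, python-igraph 0.11.9). Other tools were numpy 2.4.6, scipy 1.17.1 and pandas 2.3.3. The log2 differences were tried on Poisson counts simulated at the summed depths of the populations, without spread between cells. Simulated 4-fold increases came back within 0.5 in log2 for 100% of genes in each comparison. Simulated 4-fold decreases did so for 89%, 92% and 83% against granulocyte-monocyte progenitors, B-lineage cells and Ccr2 Cd34 cells. Unchanged genes passed 4-fold in 0%.

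The genes to name were the listed genes past 4-fold in any comparison or among the 4 most abundant of their list, and the 10 highest and 10 lowest other genes of each comparison with the same sign in both libraries. Not all of them are printed, some genes are not reported here, and low or absent markers of cell types, genes at the limits of the rule and genes of the pairs and subgroups were added after their values were seen. Alternatives were other limits on Flt3 and Trbc2, depth, mitochondrial share and deep cells, each library alone, a pseudocount of 1 CPM, mean CPM per cell, other minimum levels, other thinning depths and other resolutions.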

Additional observations from a re-analysis of the deposited data

How the results depend on the processing

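The number of members, 321, was 226 with at least 3 UMIs of Flt3 and of Trbc2 and 459 with 1 of each, and 318 to 320 under the other cell filters; libraries 3 and 4 held 99.1% to 99.6% of them under every one of these. Of the counts of genes past 4-fold, the 11 genes higher than in B-lineage cells became 22 in library 3 alone and 19 with a pseudocount of 1 CPM, and the other counts stayed within 1.5 times of their value under the 11 alternatives. The share of members with a tdTomato UMI, 46.7% as deposited, was 10.7% after thinning to 4000 UMIs, which removes UMIs by construction. The 4 subgroups became 7 at Leiden resolution 1 and stayed 4 at 0.3. Of 155 differences past 4-fold among named genes, 0 changed sign in 1705 values under the alternatives, and 1693 of these values stayed past 4-fold. No paired analysis was possible because the barcode numbers match no sample label and no result comes from a test. Depth limits the low genes: 3 UMIs in the members correspond to 0.398 CPM, and intervals cover counting error in 2 libraries, not spread between embryos or mice.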
